A study of Mus musculus with 8 samples.

Results

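The position of 39 genes of the BMP, activin and TGF-beta pathway relative to the nuclear lamina was read from LaminB1-DamID of 3T3-L1 cells, an established mouse fibroblast line that becomes adipocytes in culture. The genes were taken from a list of ligands, receptors and inhibitors, and all 39 were found by symbol among the 22367 protein-coding genes of the mm9 annotation on the 21 chromosomes of the deposited lists. DamID fuses LaminB1 to a bacterial adenine methylase, Dam, so that GATC sites close to the nuclear envelope become methylated, and stretches with a high ratio of LaminB1-Dam to free Dam are called lamina associated domains (LADs).

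There were 8 libraries in 4 conditions, and each condition had 1 library of free Dam and 1 of LaminB1-Dam. Preadipocytes were undifferentiated cells at day 0 that received no induction medium and carried no shRNA. Adipocytes, at day 9 of differentiation, carried a control shRNA construct. The paper names an empty shRNA vector as control of the knockdown and non-target shRNAs for its arrays. The knockdown adipocytes, also at day 9, carried shRNA against Tmem120a, referred to as the single knockdown, or against both Tmem120a and its paralog Tmem120b, referred to as the double knockdown. All adipocytes were induced with insulin, dexamethasone, IBMX and rosiglitazone and kept in insulin and rosiglitazone, and the shRNA lines were stable lines. All cells were transduced with the Dam viruses, the adipocytes during differentiation. Preadipocytes and adipocytes thus differed in differentiation and in the presence of an shRNA construct. By part of the study's description they also differed in the time from transduction to harvest, which was shorter in preadipocytes. These differences cannot be told apart. With 1 pair of libraries per condition no value has a spread between replicates, no test between conditions was possible, and differences below describe these lists. The deposited lists hold positions alone, 2542 LADs in adipocytes, 3914 in preadipocytes, 5723 in the single knockdown and 6971 in the double knockdown, so read depth is unknown. Expression is not part of the lists, so neither adipocyte identity nor the knockdowns could be checked on marker genes here.

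Ligands of this family are secreted dimers that bring type I and type II serine/threonine kinase receptors together. The type I receptor then phosphorylates receptor Smads, which enter the nucleus with Smad4, and inhibitory Smads and extracellular binding proteins limit the signal. In fat, BMP4 is known for commitment of mesenchymal precursors to the adipocyte lineage, BMP7 and BMP8B for brown adipocyte formation and thermogenesis, and activin A and TGF-beta for holding precursors back from differentiation. ALK7, the product of Acvr1c, is a type I receptor abundant in adipocytes that restrains lipolysis.

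To determine how many of these genes lay at the lamina, a gene was counted as meeting a LAD when any base of its body did. In preadipocytes 9 of the 39 genes met a LAD (23.1%, against 26.2% of all protein-coding genes). In adipocytes 5 did (12.8%, against 23.3%), and in the single knockdown 5 did (12.8%, against 27.5%). In the double knockdown 9 did (23.1%, against 29.5%). The share of pathway genes was therefore below the background in each list, by least in preadipocytes. With only LADs of at least 100 kb counted, the gap was least in the double knockdown (17.9%, against 20.6%). In preadipocytes the shares were then 15.4% against 21.8%. By the start site alone, 8 genes lay in a LAD in preadipocytes (20.5%, against 23.3% of all genes) and 3 in adipocytes (7.69%, against 21.2%). In the single knockdown 4 did (10.3%, against 22.6%), and in the double knockdown 6 (15.4%, against 23.8%).

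**Figure D1:**
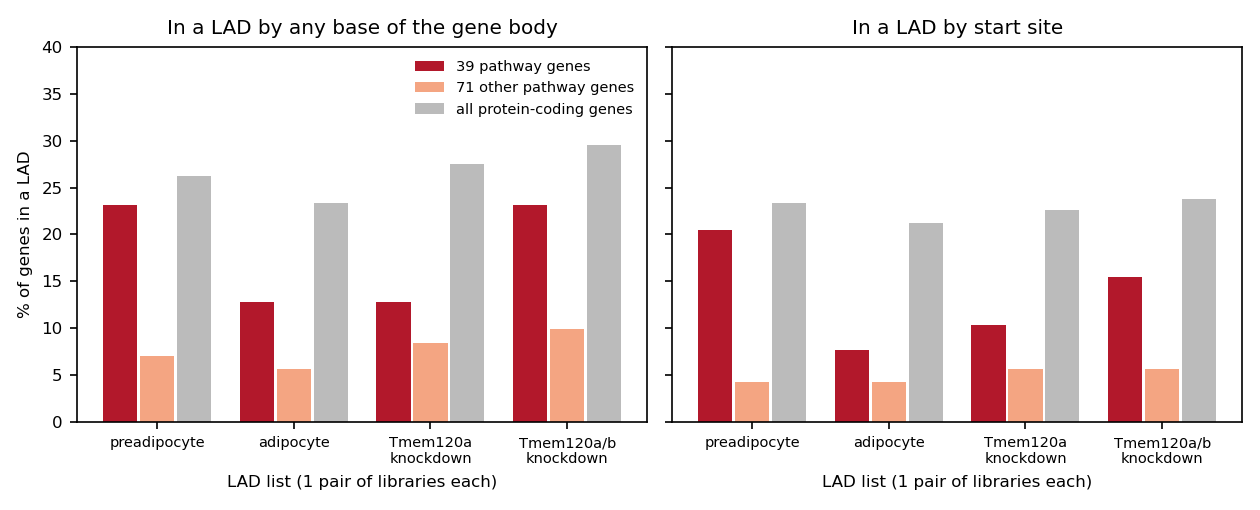
Percent of genes in a LAD (y axis) in each of the 4 lists (x axis), by any base of the gene body (left) and by the start site (right). Red bars stand for the 39 pathway genes, orange bars for 71 other genes of the pathway and grey bars for all 22367 protein-coding genes, with 1 pair of libraries behind each list and no error bars. The red bars are lower in adipocytes (12.8% by body) than in preadipocytes (23.1%), while the grey bars lie between 23.3% and 29.5% by body.

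No LAD was met in any list by 29 genes (74.4%, against 63.7% of all genes). A LAD was met in all 4 lists by 4 genes, Bmp2, Bmp3, Bmp7 and Bmpr1b (10.3%, against 19.3%). The state differed between lists for 6 genes, Bmp5, Gdf6, Gdf10, Acvr1, Acvr1c and Nog (15.4%, against 16.9%). Grouped by role, LADs were met in at least 1 list by 6 of 15 BMP and GDF ligands, by 3 of 11 receptors and by 1 of 4 extracellular antagonists. The 3 activin and inhibin subunit genes, the 3 TGF-beta ligand genes, the 2 inhibitory Smad genes and Bmp1, which encodes a procollagen protease and not a ligand, met none. Of all protein-coding genes 63.7% met none either. The groups are small, and a difference between roles was not tested.

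**Figure D2:**
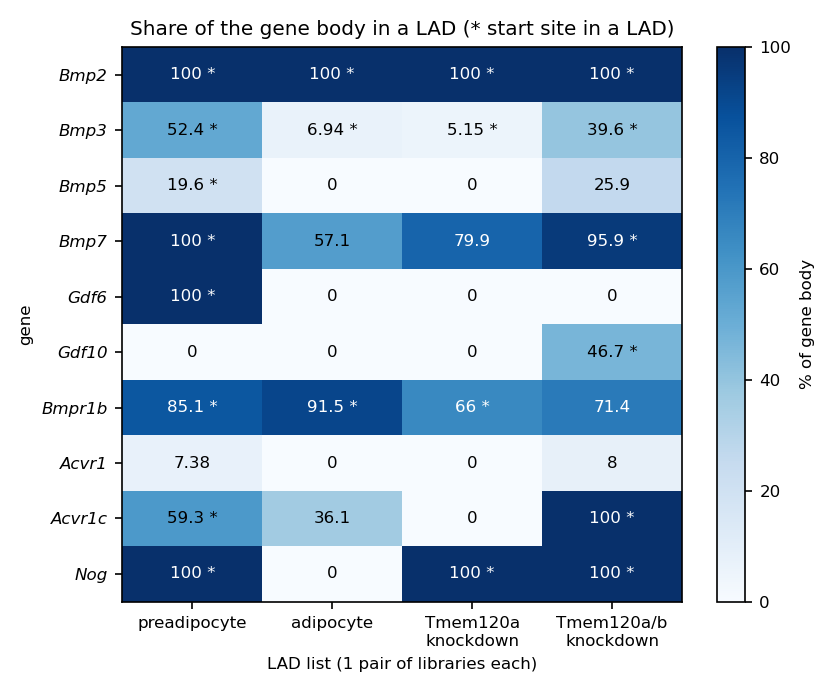
Percent of the gene body in a LAD (number and colour, 0 to 100%) for the 10 pathway genes (rows) that met a LAD in at least 1 of the 4 lists (columns). An asterisk marks lists in which the start site lay in a LAD. Nog reads 100, 0, 100 and 100 across the lists, Gdf6 100 in preadipocytes and 0 elsewhere, and Acvr1c 59.3, 36.1, 0 and 100.

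The LAD edges that carry these differences lie at GATC sites, the sequence that Dam methylates and DpnI cuts once it is methylated. Of the borders in the lists, 96.5% to 98.8% fell at such a site in the mm9 sequence. The sites below are shown because they mark where LAD cover ended in or beside 6 of the 7 genes with less of it in adipocytes than in preadipocytes. Each is given on the plus strand of mm9 with the GATC at the border in capitals, and the border lies between its A and T.
Nog, near edge of the adipocyte LAD, upstream of the gene, chr11:89190078-89190121: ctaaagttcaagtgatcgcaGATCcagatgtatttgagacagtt
Nog, edge of the double knockdown LAD, downstream of the gene, chr11:89161328-89161371: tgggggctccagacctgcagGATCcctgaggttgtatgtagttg
Gdf6, edge of the preadipocyte LAD, upstream, chr4:9754003-9754046: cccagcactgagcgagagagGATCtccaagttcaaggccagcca
Gdf6, edge of the adipocyte LAD, downstream, chr4:9791898-9791941: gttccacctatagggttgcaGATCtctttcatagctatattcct
Gdf6, edge of the single knockdown LAD, downstream, chr4:9798295-9798338: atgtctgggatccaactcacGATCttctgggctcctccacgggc
Gdf6, edge of the double knockdown LAD, downstream, chr4:9790136-9790179: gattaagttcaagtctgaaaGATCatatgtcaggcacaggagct
Acvr1c, edge of the preadipocyte LAD, intron 2, chr2:58156651-58156694: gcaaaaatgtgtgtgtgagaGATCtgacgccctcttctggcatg
Acvr1c, edge of the adipocyte LAD, intron 2, chr2:58152467-58152510: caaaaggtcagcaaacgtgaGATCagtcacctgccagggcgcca
Acvr1, edge of the preadipocyte LAD, intron, chr2:58254205-58254248: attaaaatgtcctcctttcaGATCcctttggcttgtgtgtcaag
Acvr1, edge of the double knockdown LAD, intron, chr2:58255321-58255364: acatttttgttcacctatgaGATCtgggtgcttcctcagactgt
Bmp7, edge of the adipocyte LAD, intron 1, chr2:172742856-172742899: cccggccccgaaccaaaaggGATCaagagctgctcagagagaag
Bmp7, edge of the single knockdown LAD, intron 1, chr2:172751274-172751317: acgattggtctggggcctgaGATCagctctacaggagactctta
Bmp7, edge of the double knockdown LAD, upstream, chr2:172777290-172777333: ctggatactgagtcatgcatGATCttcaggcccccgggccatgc
Bmp3, edge of the preadipocyte LAD, intron 1, chr5:99297338-99297381: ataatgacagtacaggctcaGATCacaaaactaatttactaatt
Bmp3, edge of the adipocyte LAD, intron 1, chr5:99285276-99285319: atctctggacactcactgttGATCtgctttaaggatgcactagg
Bmp3, edge of the single knockdown LAD, intron 1, chr5:99284801-99284844: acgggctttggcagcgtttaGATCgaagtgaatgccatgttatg
Bmp3, edge of the double knockdown LAD, intron 1, chr5:99293933-99293976: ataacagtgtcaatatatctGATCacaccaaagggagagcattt

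To see how LAD cover differed in adipogenesis, each gene was compared between preadipocytes and adipocytes. A LAD was met in preadipocytes and none in adipocytes by 4 genes, Bmp5, Gdf6, Acvr1 and Nog (10.3%, against 4.81% of all genes). The reverse was seen for 0 of the 39 genes (1.88% of all genes). The percent of the body in a LAD was lower in adipocytes than in preadipocytes for 7 genes, Bmp3, Bmp5, Bmp7, Gdf6, Acvr1, Acvr1c and Nog (17.9%, against 6.85%), and higher for 1, Bmpr1b (2.56%, against 4.01%). The start site left LADs in 5 genes, Bmp5, Bmp7, Gdf6, Acvr1c and Nog (12.8%, against 3.94%), and entered them in 0 (1.84% of all genes). The direction was thus toward less LAD cover in adipocytes for 7 of the 8 genes whose cover differed (87.5%, against 63.1% of all 2429 such genes). The adipocyte list was also the one with the fewest LADs, although the paper states that the share of the genome in LADs differed little between conditions.

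The authors also deposited 2 lists of differential regions, released ones, covered by a LAD before but not after differentiation, and recruited ones, with the opposite state. Released regions were met by the same 7 genes (17.9%, against 5.76% of all genes) and recruited regions by Bmpr1b (2.56%, against 3.08%). Acvr1 and Acvr1c lie 30.8 kb apart and met the same released region, so the 7 genes stand for 6 regions. These 6 regions met no protein-coding gene other than the pathway genes themselves. Among all released regions, 1148 of 2021 met a protein-coding gene and 78.4% of those met only 1. Long genes meet a region more easily. The median length was 26.9 kb for the 39 genes, 72.3 kb for the 7 that met a released region, 15.4 kb for all genes and 41.7 kb for all genes that met a released region. With at least 50% of the body required, 3 of the 39 genes, Gdf6, Acvr1c and Nog, lay in a released region (7.69%, against 3.01%).

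Nog encodes noggin, a secreted protein that binds BMPs and keeps them from their receptors. The gene has 1 exon of 1.92 kb on chromosome 11 (89161952 to 89163873, minus strand) with 3 GATC sites. Its body was fully covered by a LAD in preadipocytes (100%), outside LADs in adipocytes (0%), and again wholly in one in the single knockdown (100%) and in the double knockdown (100%). Nog was the only gene of the 39 that met a LAD in these 3 lists and none in adipocytes, a pattern that 1.44% of all genes showed by any base of the body. The preadipocyte LAD spanned 336 kb (89080879 to 89416776) and also held Ankfn1 and 4932411E22Rik. In adipocytes the nearest LAD (89190100 to 89818385) began 26.2 kb upstream of the start site and still held both of these genes. In the single knockdown the LAD (89065897 to 89377152) reached 98.0 kb past the start site on the side of the gene. In the double knockdown the edge (89161350) lay 2.52 kb past the start site, just beyond the end of the gene. A separate LAD of the double knockdown lay 38.0 to 57.1 kb past the start site. The released region at Nog, of 109 kb, lay in LADs over 100% of its length in the single knockdown. In the double knockdown both LADs together covered 43.8% of the region, although the gene itself was covered in both knockdowns.

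The promoter of Bmp7 is shown, since its start site was covered in preadipocytes and the double knockdown and lay outside LADs in adipocytes. It gives the 250 bases before the start site in the direction of the gene (mm9), with GATC in capitals.
Bmp7 promoter, chr2:172765823-172766072, minus strand: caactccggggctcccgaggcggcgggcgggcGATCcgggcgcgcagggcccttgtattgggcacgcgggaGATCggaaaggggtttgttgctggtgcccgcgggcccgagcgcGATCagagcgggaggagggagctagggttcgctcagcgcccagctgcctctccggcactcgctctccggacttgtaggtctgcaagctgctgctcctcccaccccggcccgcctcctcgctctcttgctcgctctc
This promoter held 3 GATC sites. GATC, which reads the same on both strands, was found in the promoters of 12 of the 39 genes (30.8%, against 40.2% of all genes). Among the 10 genes that met a LAD in at least 1 list it was found in 6 (60.0%). Motifs tied to Smad binding were searched on both strands as well. The palindrome GTCTAGAC was found in 0 of the 39 promoters (0.143% of all). CAGACA was found in 6 (15.4%, against 15.3%) and GGCGCC in 7 (17.9%, against 11.1%). A match is a description of the sequence only.

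Gdf6 encodes a BMP-type ligand needed for joints and parts of the skeleton. Its 18.0 kb body on chromosome 4 (9771519 to 9789492) was fully covered by a LAD in preadipocytes (100%) and outside LADs in adipocytes, in the single knockdown and in the double knockdown (0% in each). The preadipocyte LAD (9754025 to 10058519) began upstream of the start site. The LAD edge lay 2.43 kb beyond the end of the gene in adipocytes, 8.82 kb beyond it in the single knockdown and 0.665 kb beyond it in the double knockdown. The gene was thus beside a LAD in all 3 adipocyte lists, and with a gene within 10 kb of a LAD counted as meeting it, Gdf6 met one in each of these lists. Of the 37.9 kb released region at Gdf6, the single knockdown list covered 0% and the double knockdown list 4.65%.

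Acvr1c and Acvr1, genes for type I receptors, lie side by side on chromosome 2, where the LADs of the 4 lists differed in extent. Acvr1 encodes ALK2, a receptor for BMPs that also binds activins. Of the 90.4 kb body of Acvr1c (58119864 to 58210306, minus strand), 59.3% lay in a LAD in preadipocytes, 36.1% in adipocytes, 0% in the single knockdown and 100% in the double knockdown. The covered parts did not overlap between preadipocytes and adipocytes. The preadipocyte LAD (58156673 to 58254226) held the start site and 2 of 9 exons, whereas the adipocyte LAD (58054338 to 58152488) held the other 7 exons, and the edges of both lay in intron 2, 4.18 kb apart. The double knockdown had 1 LAD of 215 kb (58040130 to 58255342) over both parts. In the single knockdown the nearest LAD ended 21.3 kb beyond the end of the gene.

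Acvr1 (58241055 to 58419568, minus strand) was reached by the same LADs at its far end alone. It had 7.38% of its 178.5 kb in a LAD in preadipocytes, 0% in adipocytes and in the single knockdown, and 8.0% in the double knockdown, with no exon of the transcript used and no start site covered in any list. The right edges of the preadipocyte and double knockdown LADs both lay in an intron of Acvr1, at 58254227 and 58255343. The released region shared by both genes, of 97.6 kb, lay in a LAD over 0% of its length in the single knockdown and 100% in the double knockdown.

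**Figure D3:**
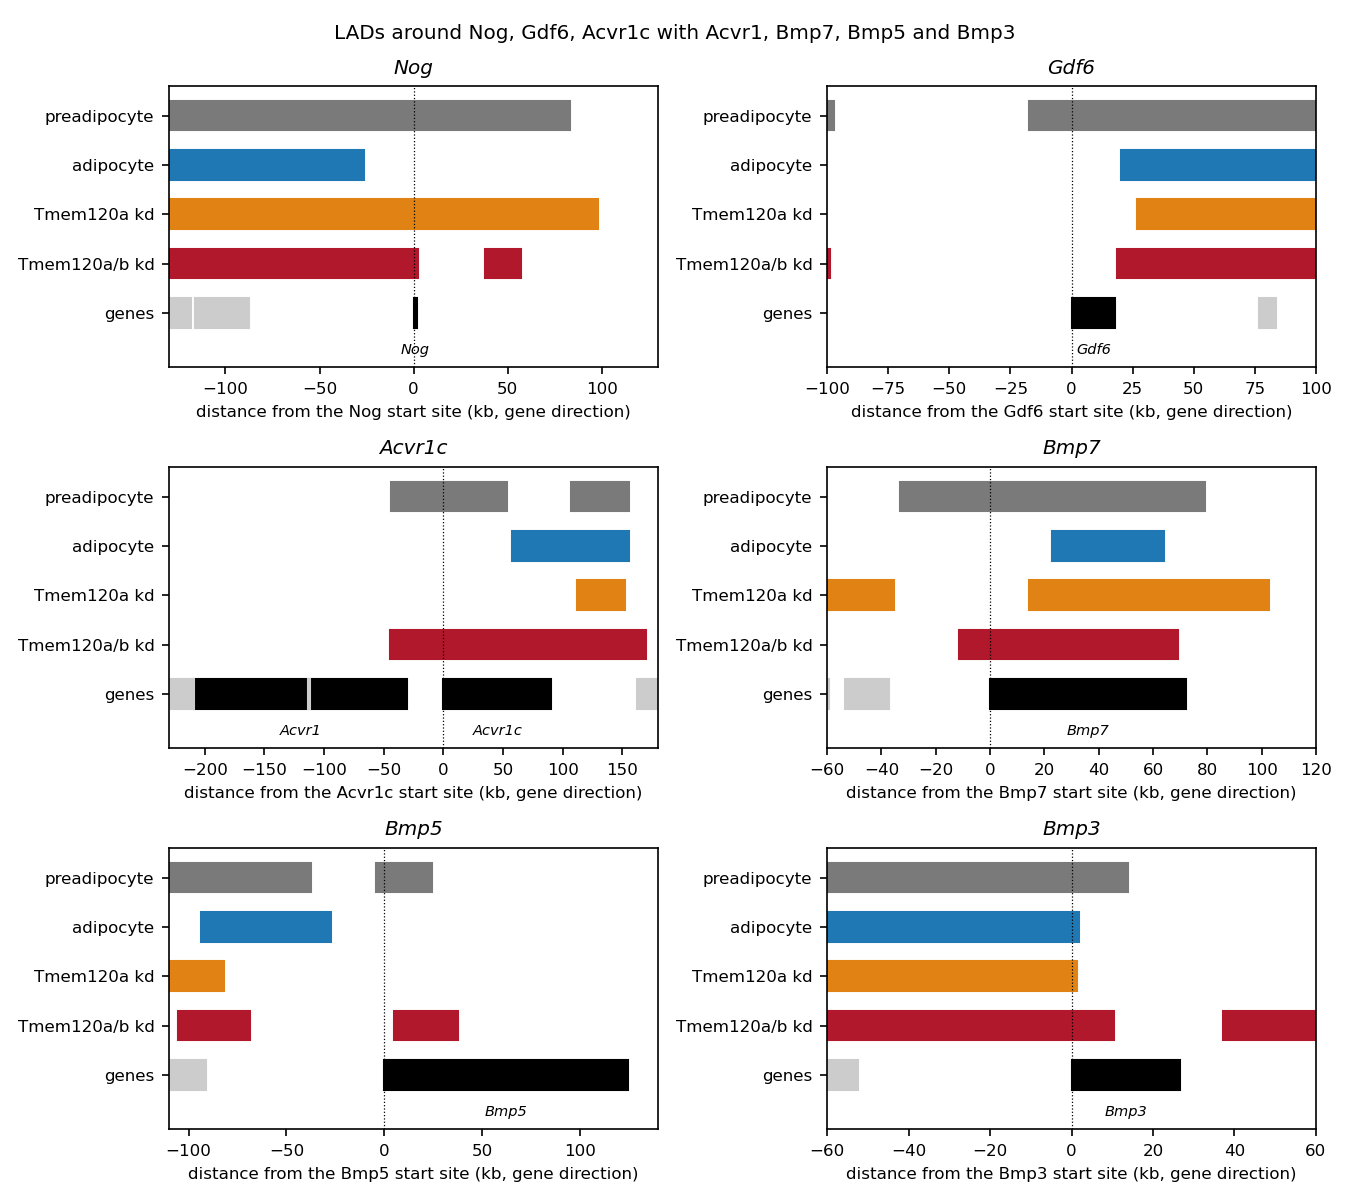
LADs (coloured bars, 1 row per list) around the start sites of Nog, Gdf6, Acvr1c with Acvr1, Bmp7, Bmp5 and Bmp3, with distance from the start site in kb in the direction of the gene on the x axis and the knockdowns marked kd. Black bars are pathway genes, grey bars other protein-coding genes, and the dotted line marks the start site. The adipocyte LAD stops 26.2 kb short of Nog, and the 1 double knockdown LAD at Acvr1c covers the parts held separately by the preadipocyte and adipocyte LADs.

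Bmp7 lies on chromosome 2 (172693513 to 172765822, minus strand) over 72.3 kb. Its body lay in a LAD over 100% of its length in preadipocytes, 57.1% in adipocytes, 79.9% in the single knockdown and 95.9% in the double knockdown. Preadipocytes and the double knockdown had the start site in a LAD, and it lay 22.9 kb from one in adipocytes and 14.5 kb in the single knockdown. In adipocytes the LAD was 41.3 kb long, lay wholly inside the gene from intron 1 to intron 4, and held 3 of 7 exons. In each of the 4 lists the LAD at Bmp7 held no other protein-coding gene. Only the preadipocyte LAD was over 100 kb, so with shorter LADs left out the gene had 0% in the other 3 lists. The window of 500 kb on either side of its start site had 50.4% G+C, the highest of the 10 genes that met a LAD.

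Bmp5, whose product belongs to the same ligand subgroup as BMP7, lies on chromosome 9 (75623171 to 75748117). It had 19.6% of its 124.9 kb in a LAD in preadipocytes, 0% in adipocytes, 0% in the single knockdown and 25.9% in the double knockdown. The preadipocyte LAD (75618861 to 75647631) was short, 28.8 kb, and held the start site and exon 1. The double knockdown LAD (75628328 to 75660738) was 32.4 kb long, lay wholly in intron 1, and left the start site 5.16 kb outside. The gene thus met a LAD in both lists by stretches that overlapped only in part, and 67.1% of the released region lay in a LAD of the double knockdown.

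Bmp3 encodes an atypical ligand that counteracts osteogenic BMPs. Its body on chromosome 5 (99283458 to 99309979) lay in a LAD over 52.4% of its length in preadipocytes, 6.94% in adipocytes, 5.15% in the single knockdown and 39.6% in the double knockdown. The start site was in a LAD in all 4 lists and every edge lay in intron 1, at 13.9 kb, 1.84 kb, 1.36 kb and 10.5 kb from the start site. The adipocyte and single knockdown edges were thus close to each other, and those of preadipocytes and the double knockdown lay further into the gene.

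Bmp2, a ligand that commits mesenchymal cells to bone and fat, showed the same state throughout. Its 10.7 kb body on chromosome 2 (133377895 to 133388621) was fully covered by a LAD of 1555 kb before differentiation, 1569 kb in adipocytes, 1264 kb in the single knockdown and 1522 kb in the double knockdown. No other protein-coding start site lay within 500 kb of that of Bmp2, the lowest number among the 39 genes. Bmpr1b, the gene of a type I BMP receptor, spans 332.3 kb on chromosome 3 (141500100 to 141832389, minus strand). It had 85.1% in a LAD in preadipocytes, 91.5% in adipocytes, 66.0% in the single knockdown and 71.4% in the double knockdown. The recruited region it met, 21.1 kb from intron 2 to intron 5, lay in a LAD over 0% of its length in the single knockdown and 65.5% in the double knockdown. Both knockdown lists had the gene in 2 LADs with a gap in intron 1 rather than in 1, and in the double knockdown the start site lay 49.1 kb outside.

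Gdf10, which encodes a ligand close to BMP3, was the only one of the 39 genes met by a LAD in the double knockdown alone (4.05% of all genes). Its body on chromosome 14 (34736773 to 34749700) had 0% in a LAD in preadipocytes, adipocytes and the single knockdown, and 46.7% in the double knockdown, with the start site covered. Before differentiation the nearest LAD lay 43.6 kb away, in adipocytes 122 kb and in the single knockdown 20.6 kb.

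The knockdown lists were read next. Whether these differences depended on TMEM120A, a transmembrane protein of the nuclear envelope, was not tested. Set against adipocytes, 1 gene, Nog, met a LAD in the single knockdown and not in adipocytes (2.56%, against 6.13% of all genes), and 1, Acvr1c, met one in adipocytes and not in the knockdown (2.56%, against 1.95%). In the double knockdown 4 genes, Bmp5, Gdf10, Acvr1 and Nog, met a LAD and did not in adipocytes (10.3%, against 8.36%), and 0 did the reverse (2.10% of all genes). For the double knockdown the pathway share was thus close to that of all genes by any base of the body, but not with LADs of at least 100 kb (10.3%, against 3.08%). The 4 genes were then Gdf10, Acvr1, Acvr1c and Nog, of which Acvr1c entered because its adipocyte LAD of 98.2 kb was left out, and 1 LAD reached both Acvr1 and Acvr1c. For the single knockdown the pathway share newly meeting a LAD, which rests on 1 gene, was below that of all genes. With LADs of at least 100 kb this order turned, to 2.56% against 1.84%. By the start site, 0 genes left LADs in the single knockdown (2.44% of all genes) and 1, Nog, entered them (2.56%, against 3.76%). In the double knockdown the start site of 1 gene, Bmpr1b, left LADs (2.56%, against 2.69%), and those of 4, Bmp7, Gdf10, Acvr1c and Nog, entered them (10.3%, against 5.28%).

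Of the 4 genes that met a LAD in preadipocytes and none in adipocytes, 1 met one in the single knockdown, Nog (25%, against 41.4% of all 1076 such genes), and 3 in the double knockdown, Bmp5, Acvr1 and Nog (75.0%, against 55.5%). The 7 genes with less LAD cover in adipocytes were followed in the same way. Cover was higher than in adipocytes for 2 of them in the single knockdown (28.6%, against 47.2%) and for 6 in the double knockdown (85.7%, against 59.8%). In the single knockdown the percent of the body in a LAD was nearer to the preadipocyte than to the adipocyte value for 2 of 7, Bmp7 and Nog (28.6%, against 37.6% of the 1533 protein-coding genes with less cover in adipocytes). In the double knockdown it was so for 6 of 7, Bmp3, Bmp5, Bmp7, Acvr1, Acvr1c and Nog, with Gdf6 as the exception (85.7%, against 51.1%). Acvr1 and Acvr1c are reached by 1 LAD there. The double knockdown value was above that of preadipocytes for Acvr1c (100% against 59.3%), Bmp5 (25.9% against 19.6%) and Acvr1 (8.0% against 7.38%). It was below it for Bmp3 and Bmp7 and equal for Nog. A nearer percent thus does not mean that the same stretch was covered. LADs of at least 100 kb were a setting chosen here after seeing the data. With these, cover was nearer to preadipocytes for 2 of 4, Bmp3 and Nog, in the double knockdown (50%, against 40%). In the single knockdown it was so for 1 of 4, Nog (25%, against 27.3%). The start sites of Bmp7, Acvr1c and Nog were in LADs again in the double knockdown, that of Nog also in the single knockdown. Those of Bmp5 and Gdf6 were in a LAD in neither. The share for the 882 protein-coding genes whose start site left LADs in adipogenesis was not computed, so these counts have no background. Both knockdowns share their preadipocyte and adipocyte references, and the difference between them was not tested, as each rests on 1 pair of libraries. The double knockdown list also held more LADs in all, 6971 against 5723, and 29.5% against 27.5% of all genes met one, and the part of this in the difference was not tested.

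The 29 genes outside LADs in all 4 lists were described by the distance of the body to the nearest LAD. Among all pathway genes outside LADs in a given list, the median distance was 181 kb before differentiation (30 genes), 322 kb in adipocytes (34 genes), 169 kb in the single knockdown (34 genes) and 192 kb in the double knockdown (30 genes). For all protein-coding genes outside LADs the medians were 387 kb, 527 kb, 252 kb and 223 kb. The median of pathway genes was thus below that of genes at large in each list, but other measures differed. In the double knockdown 26.7% of pathway genes outside LADs lay within 100 kb of one, against 31.2% of all genes, and in preadipocytes 26.7% lay over 1000 kb away, against 24.2%. With LADs of at least 30 kb the order of the medians turned for the double knockdown, to 353 kb for pathway genes against 320 kb for all genes. Of the 29 genes, 20 were farther from a LAD in adipocytes than in preadipocytes and 9 nearer (31.0% nearer, against 29.2% of the 14251 protein-coding genes outside LADs in all lists). In the single knockdown 23 were nearer than in adipocytes (79.3%, against 75.8%), and in the double knockdown also 23 (79.3%, against 82.1%). The direction of these shifts was that of genes at large.

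**Figure D4:**
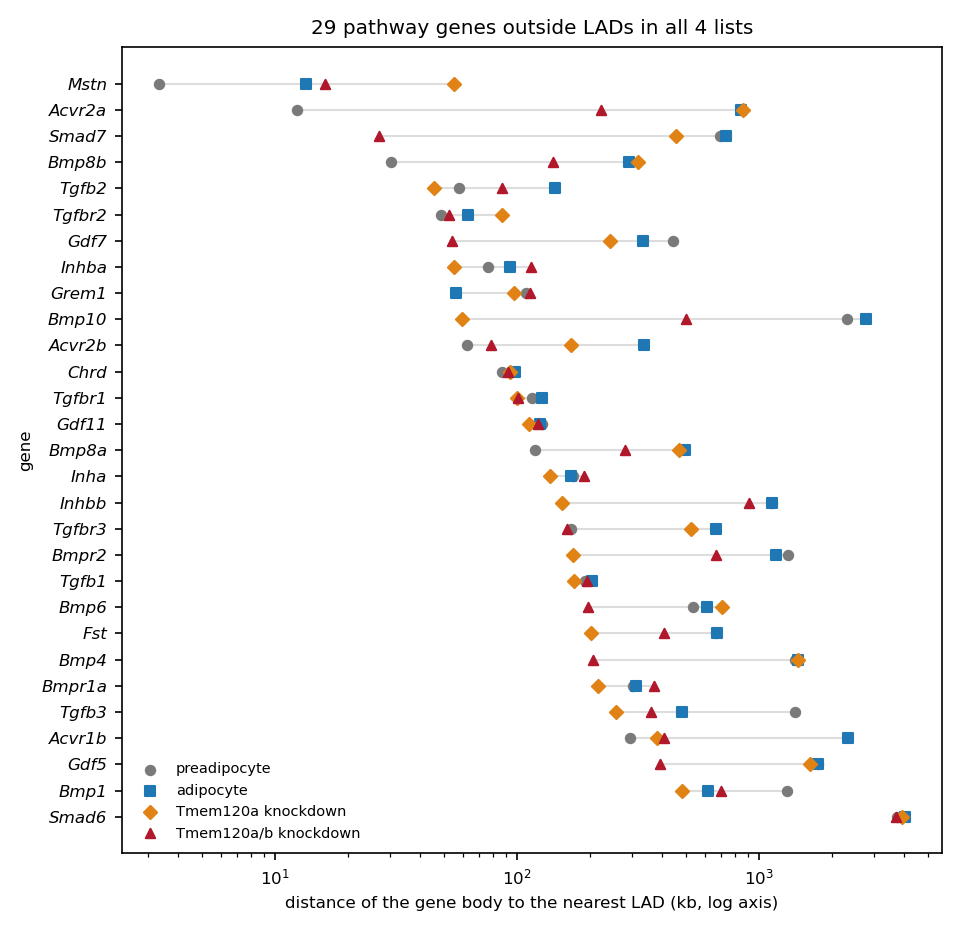
Distance of the gene body to the nearest LAD (x axis, kb, log axis) for the 29 pathway genes outside LADs in all 4 lists (y axis, ordered by the smallest of the 4 distances). Symbols stand for the lists, with 1 pair of libraries each, and grey lines join the smallest and largest distance of a gene. Mstn lies closest to a LAD, at 3.33 kb in preadipocytes, and Smad6 is at least 3703 kb away in every list.

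The 5 genes nearest to a LAD, by their smallest distance over the lists, were Mstn, Acvr2a, Smad7, Bmp8b and Tgfb2. Mstn encodes myostatin, a TGF-beta family ligand that limits muscle growth, and had a LAD 3.33 kb away before differentiation, 13.4 kb in adipocytes, 54.9 kb in the single knockdown and 16.1 kb in the double knockdown. Acvr2a, a type II receptor gene for activins and myostatin, had one 12.3 kb away before differentiation, 846 kb in adipocytes, 861 kb in the single knockdown and 223 kb in the double knockdown. No list of differentiated cells thus had a LAD as near to Acvr2a as preadipocytes. Smad7, an inhibitory Smad, lay 691 kb, 733 kb and 456 kb from a LAD in preadipocytes, adipocytes and the single knockdown, and 27.0 kb in the double knockdown. Bmp8b lay 30.3 kb, 290 kb, 317 kb and 141 kb from one in the same order of lists. Tgfb2, one of the TGF-beta ligand genes, lay at most 143 kb from a LAD in the 4 lists, with 57.6 kb in preadipocytes and 45.6 kb in the single knockdown as its smallest values.

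The 3 genes farthest from a LAD, by their smallest distance over the lists, were Smad6, Bmp1 and Gdf5. In adipocytes alone Bmp10, at 2767.5 kb, and Acvr1b, at 2334.5 kb, lay farther away than Bmp1 and Gdf5. Smad6, the inhibitory Smad of BMP signalling, lay 3717 kb, 4012 kb, 3924 kb and 3703 kb from a LAD in preadipocytes, adipocytes, the single knockdown and the double knockdown. Bmp1 lay 1308 kb, 617 kb, 482 kb and 697 kb away. Gdf5, a ligand of joint formation, lay 1761 kb, 1761 kb, 1635 kb and 391 kb away. Smad6 was therefore far along the chromosome from a called LAD in every list, whereas Gdf5 was nearest to a LAD in the double knockdown.

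Among the ligands most studied in fat, Bmp4 lay 1418 kb, 1449 kb, 1449 kb and 206 kb from a LAD in preadipocytes, adipocytes, the single knockdown and the double knockdown. Inhba, which encodes the subunit of activin A, lay 76.3 kb, 93.7 kb, 54.9 kb and 115 kb from one, and Tgfb1 192 kb, 204 kb, 173 kb and 195 kb. Tgfb1 thus differed little between the lists, while Bmp4 was nearer in the double knockdown than elsewhere. Of the type II receptor genes, Tgfbr2, that of the TGF-beta receptor, lay 48.8 kb, 63.1 kb, 86.5 kb and 52.3 kb from a LAD. Acvr2b, whose product binds activins and myostatin, lay 62.4 kb, 336 kb, 167 kb and 78.7 kb from a LAD, and Bmpr2, the type II BMP receptor, 1327 kb, 1183 kb, 172 kb and 668 kb. The antagonist genes outside LADs, Chrd, Grem1 and Fst, whose products bind BMPs or, for Fst, mainly activins, did not move alike. Chrd stayed between 87.2 kb and 98.7 kb, Grem1 between 56.0 kb and 114 kb, and Fst between 203 kb and 671 kb.

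The 10 genes that met a LAD were longer and lay in emptier surroundings than the 29 that did not, a description without a test. Their median length was 49.4 kb (1.92 to 332.3 kb) against 26.9 kb (3.29 to 183 kb). The median number of other protein-coding start sites within 500 kb was 6 (0 to 18) against 10 (1 to 49), with 15 for all protein-coding genes. The median G+C content of that window was 41.2% (39.7% to 50.4%) against 44.9% (38.6% to 48.8%). The ranges overlapped in each of these measures. GATC sites numbered 121 per gene body at the median against 55. The 10 genes were chosen by any base of the body, a rule that long genes with many GATC sites meet more easily. No such values are given here for all protein-coding genes that met a LAD.

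The rest of the pathway was read from a list of 71 further genes, namely other ligands, receptors and co-receptors, extracellular modulators, latent TGF-beta binding proteins, Smads and their regulators, and target genes. LADs were met by 5 of the 71 in preadipocytes (7.04%), 4 in adipocytes (5.63%), 6 in the single knockdown (8.45%) and 7 in the double knockdown (9.86%), lower in each list than for all protein-coding genes. The 7 target genes, among them Id1 to Id4, met none in any list, and 13 of 15 Smads and Smad regulators met none, as did 63.7% of all genes. Fstl5, Vwc2 and Fstl4 met a LAD in all 4 lists. From preadipocytes to adipocytes, 2 met a LAD in the former alone, Sostdc1 and Bambi (2.82%, against 4.81% of all genes), and 1 in the latter alone, Bmp15 (1.41%, against 1.88%).

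Sostdc1, which encodes a secreted BMP and Wnt antagonist, was covered over 100% of its body in preadipocytes, 0% in adipocytes, 100% in the single knockdown and 0% in the double knockdown. Bambi, a pseudoreceptor that dampens TGF-beta and BMP signals, had 67.2% in preadipocytes and 0% in the other 3 lists. Sostdc1 thus shared with Nog the cover in preadipocytes and in the single knockdown, and differed from it in the double knockdown. Bmp15, a ligand of the oocyte, had 100% in adipocytes and 0% in the other 3 lists. Cfc1, a co-receptor of nodal, had 100% in the double knockdown and 0% elsewhere. Chrdl1, a chordin-like BMP antagonist, had 21.1% in the double knockdown and Ltbp1, a latent TGF-beta binding protein, had 8.42%, each with 0% elsewhere. Smad4, the common partner of receptor Smads, had 59.5% in the single knockdown and Smad9, a receptor Smad of the BMP branch, 34.6%, each with 0% elsewhere.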

How the data were processed

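LaminB1-DamID was read from 4 deposited LAD lists and 2 deposited lists of differential regions. The authors mapped reads to mm9 (BWA and limma are named in the submitters' processing notes), took log2(LaminB1-Dam/Dam) per DpnI fragment and called LADs by DNAcopy segmentation. The deposited values are start and end positions with no score. Lists were assigned to conditions by their abbreviations. No per-sample column was left out.

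Positions were read as counting from 1 at the base after the cut in GATC, a reading that placed 96.5% to 98.8% of borders at a cut and the reading from 0 at most 0.0393%. Genes, exons and start sites came from GENCODE vM1 on the same assembly (NCBIM37), whose sequence gave the bases printed. The body is the whole annotated gene span. Overlaps and distances were computed in Python 3.11.15 with numpy 2.4.6 and pysam 0.24.0, were checked on simulated intervals, and were plotted with matplotlib 3.10.9. Promoters are the 250 bases before the start site.

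Genes given in full met a LAD or a differential region in at least 1 list. Of genes outside LADs, the 5 nearest and 3 farthest by their smallest distance were named, with Bmp4, Inhba, Tgfb1, Tgfbr2, Acvr2b, Bmpr2, Chrd, Grem1 and Fst chosen after values were seen. Of the 71 further pathway genes, those whose state differed between lists were named, except for items not reported here. The members and lists were chosen with earlier results of these data known. No test between conditions was run, with 1 pair of libraries in each. Alternatives were the overlap required (at least 50% of the body, the start site, or within 10 kb), LADs of at least 30 or 100 kb, closed gaps under 20 or 50 kb, the longest transcript, regions of at least 30 kb, and, chosen after seeing the data, positions counted from 0.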

Additional observations from a re-analysis of the deposited data

Results flagged for a closer look

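Acvr1c and Bmp3 differed from control adipocytes in opposite directions in the knockdown of Tmem120a (single) and of Tmem120a and Tmem120b (double). Of the body of Acvr1c, 36.1% lay in a LAD in adipocytes, 0% in the single knockdown and 100% in the double knockdown, a difference of 100 percentage points between the knockdowns. Of the body of Bmp3, 6.94% lay in a LAD in adipocytes, 5.15% in the single knockdown and 39.6% in the double knockdown, a difference of 34.4 percentage points. For Bmp3 the single knockdown minus adipocytes came to -1.79 percentage points, with both edges in intron 1. These edges lay close together, 1.36 kb from the start site in the single knockdown and 1.84 kb in adipocytes. The opposite direction of Bmp3 thus rests on a small difference. Opposite directions were seen for 2 of the 39 genes and for 1.10% of all protein-coding genes. These differences were not tested, since each list rests on 1 pair of libraries and both knockdowns are read against the same adipocyte list.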

How the results depend on the processing

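No paired analysis was possible because each condition has 1 pair of libraries and the labels give no replicate numbers. Of 104 alternative counts of pathway genes, 87 were within 1.5 times the reported count and 17 were not. With at least 50% of the body required, 3 genes lay in LADs in adipocytes (7.69%, against 21.3% of all genes). In the double knockdown 5 did (12.8%, against 24.2%), and 2 (Acvr1c and Nog) were gained (5.13%, against 5.30%). At this setting 0 were lost in the single knockdown (2.15% of all genes). A released region was met by 3 (7.69%, against 3.01%) and a recruited region by 0 (1.42% of all genes). By the start site alone, 3 lay in LADs in adipocytes (7.69%, against 21.2%) and 0 met a recruited region (1.49% of all genes). In the single knockdown 0 were lost by this measure (2.44% of all genes), and in the double knockdown 1, Bmpr1b (2.56%, against 2.69%). With LADs of at least 100 kb, 3 lay in LADs in adipocytes (7.69%, against 21.1% of all genes). At this length 0 were lost in the single knockdown (2.86% of all genes). Of the 4 pathway genes that then had less cover in adipocytes, 1 was nearer to preadipocytes in the single knockdown (27.3% of all such genes). In the double knockdown 2 of these 4 were (40% of all such genes). With gaps under 50 kb closed, 2, Mstn and Acvr1c, were lost in the single knockdown (5.13%, against 1.67%). In the double knockdown 1 was, Mstn (2.56%, against 1.82%). With regions of at least 30 kb, 0 met a recruited region (2.27% of all genes). These changes follow from what each setting counts, removes or joins. Genes released in adipogenesis numbered 3 to 5 under all alternatives (7.69% to 12.8%, against 2.98% to 5.68% of all genes). Nog was among them in each, but the others varied. At 50% of the body they were Bmp3, Gdf6, Acvr1c and Nog (10.3%, against 3.66% of all genes). By the start site they were Bmp5, Bmp7, Gdf6, Acvr1c and Nog (12.8%, against 3.94%). With LADs of at least 100 kb they were Bmp7, Gdf6 and Nog (7.69%, against 2.98%). Gdf6 was not among them once genes within 10 kb of a LAD were counted, Bmp5 met no preadipocyte LAD of at least 30 kb, and neither Acvr1 nor Acvr1c met one of at least 100 kb. Nog was the gene gained in the single knockdown under all alternatives (2.56%, against 1.84% to 7.32% of all genes). With LADs of at least 100 kb, Bmp7 and Acvr1c also had 0% of the body in a LAD in adipocytes, and with gaps under 50 kb closed Bmp3 had 100% in the double knockdown. Reading positions from 0, an alternative chosen after seeing the data, changed no count. Of 28 median distances, 6 moved, all with a minimum LAD length, among them that of the double knockdown, 353 kb with LADs of at least 30 kb against 320 kb for all genes. Read depth is unknown, and LAD edges cannot be placed more finely than the GATC sites.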

Other observations

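Pairs of neighbouring pathway genes were set side by side. Gdf2, which encodes a ligand of endothelial receptors, lies 4.52 kb from Gdf10 and was 61.1 kb, 139 kb, 12.4 kb and 11.4 kb from a LAD in preadipocytes, adipocytes, the single knockdown and the double knockdown, outside the LAD that reached Gdf10 in the last of these. Acvrl1 and Acvr1b, type I receptor genes 28.8 kb apart on chromosome 15, were 248 kb and 293 kb from a LAD in preadipocytes and 2402 kb and 2334 kb in adipocytes. In the single knockdown they were 447 kb and 380 kb from one and in the double knockdown 472 kb and 405 kb, so both were farthest from a LAD in adipocytes. Smad3, the receptor Smad of activin and TGF-beta, lies 195 kb from Smad6 and was 3981 kb, 4276 kb, 3618 kb and 3967 kb from a LAD in the 4 lists, of the same order as Smad6. Neighbours are not independent, and these values are descriptions without a test.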
